A study of Mus musculus with 13 samples.

Results

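The microvilli of the renal brush border are described here through 10 genes whose products build them, across 13 mouse kidney RNA libraries. The genes were taken by symbol: Vil1, Espn, Pls1 and Eps8 of the actin core, Ezr and Pdzk1 of the membrane attachment, and Cdhr2, Cdhr5, Ush1c and Myo7b of the intermicrovillar adhesion complex. They are 10 of the 35013 gene symbols in the count table, and all 10 were among the 16468 genes abundant enough to be tested. All mice were female, were given tamoxifen and carried Uprt flox/+ and Megalin3'Cre-Ert, an inducible Cre recombinase expressed from the megalin promoter. The 4 libraries labelled Spns1 KO came from such mice that were also Spns1 flox/flox. The 5 WT libraries came from mice that were Spns1 flox/+, a genotype that the sample labels shorten to Spns1 WT. The 4 FeO libraries came from mice of the WT genotype that were injected with 12 mg of iron (as iron sucrose) per day for 3 days and studied 1 week later. The age of the mice is not given in the sources used here. Where the Cre has acted, Uprt lets a cell use 4-thiouracil for its new RNA, and the RNA so tagged was purified from whole kidney. The study asked which transcripts respond to loss of Spns1, an endolysosomal membrane protein, and whether an iron load gives similar changes.

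Brush border microvilli are finger-like protrusions of the apical membrane that enlarge the surface on which the proximal tubule reabsorbs filtered solutes and proteins. Each microvillus holds a bundle of parallel actin filaments, cross-linked by villin (Vil1), espin (Espn) and plastin 1 (Pls1), with Eps8, a capping and bundling protein, at the tip. Ezrin (Ezr) ties the bundle to the overlying membrane, and Pdzk1 is a scaffold with PDZ domains that holds apical transporters in place. Neighbouring microvilli are joined at their tips by the protocadherins Cdhr2 and Cdhr5, whose cytoplasmic tails bind the scaffold harmonin (Ush1c) and the motor myosin 7b (Myo7b). Further partners of that complex, Anks4b and the light chain-like protein Calml4, were followed beside it.

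Depth lay between 31809135 and 71296474 estimated counts for the Spns1 KO libraries, between 23068023 and 37362311 for WT and between 25986133 and 29981814 for FeO. Levels are given as CPM, the count relative to library depth, with edgeR's TMM factors. Changes were tested with edgeR's quasi-likelihood F test (QL), and every adjusted p is a Benjamini-Hochberg value over all genes tested. The targeted gene Spns1 lay between 36.6 and 59.0 CPM in the libraries labelled Spns1 KO, between 39.2 and 62.9 in WT and between 39.0 and 58.7 in FeO. Against WT, the libraries labelled Spns1 KO had a log2 fold change of -0.31 for Spns1 (SE 0.18, edgeR QL adjusted p = 0.225), with overlapping ranges. Spns1 KO stands below for the libraries so labelled, since their labels could not be checked by this gene, of which the deletion removes a single exon. Outside these libraries, the study reported loss of Spns1 RNA and protein in Spns1 flox/flox kidneys with this Cre. By periodic acid-Schiff staining it described the apical brush borders of such knockouts and of controls as intact. The 10 proximal tubule markers had counts in every library, and so did all markers of podocytes, endothelium, fibroblasts, leukocytes and distal segments that were examined, although the labels name the proximal tubule as the cell type. The labels number the libraries and do not describe the animals, so p-values measure the spread between these libraries, which may be technical. WT 1 and WT 2 had close values for several markers, such as Umod (469 and 476 CPM) and Aqp2 (135 and 135). Havcr1 was at 9.39 and 7.92 CPM in WT 1 and WT 2 and at most 4.09 in the other WT libraries. How WT 1 and WT 2 are related is not given, and no fit left out both. Whether the counting used strand is not given in the sources used here, and Vil1, Ezr, Pdzk1 and Ush1c have exons that overlap exons of genes on the opposite strand. Of their 31-base sequences, 0.679%, 1.28%, 39.9% and 3.02% respectively also occur in other genes.

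Among the 10 genes in WT, levels per kilobase of transcript spanned a wide range. Ezr averaged 144 ± 16.7 CPM per kilobase (SD, n = 5) and Pdzk1 97.0 ± 17.2 (SD, n = 5), with no overlap between their ranges. Eps8 followed at 31.0 ± 4.82 CPM per kilobase (SD, n = 5), clear of both neighbours in the order. Vil1 (20.1 ± 5.17 CPM per kilobase), Ush1c (19.4 ± 3.03), Cdhr5 (16.7 ± 4.45), Pls1 (10.4 ± 2.13) and Myo7b (10.1 ± 1.87) came next (SD, n = 5 for each), and neighbours among these 5 overlapped in their ranges. Cdhr2 at 4.06 ± 0.972 and Espn at 1.71 ± 0.387 CPM per kilobase (SD, n = 5) were the lowest, and neither overlapped its neighbours in the order. In the actin core the order in WT was thus Eps8, Vil1, Pls1 and Espn, and in the adhesion complex Cdhr2 was the least abundant protocadherin. The lowest depth behind any value of the 10 genes was 175 estimated counts, for Espn in a WT library.

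**Figure D1:**
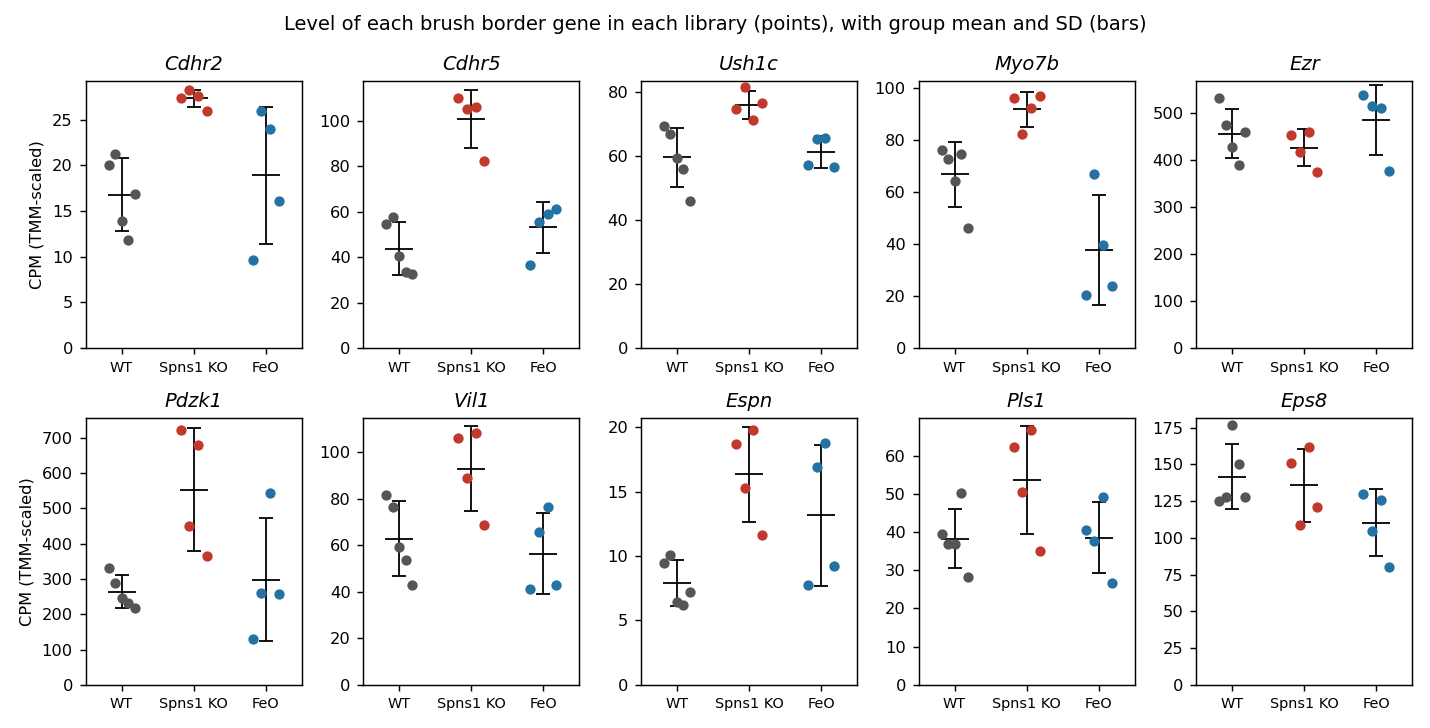
Level of each brush border gene in CPM (vertical axis, from 0, TMM-scaled) in every library (points, WT n = 5, Spns1 KO n = 4, FeO n = 4), with the group mean and SD as bars. In Spns1 KO the 4 points of Cdhr2, Cdhr5, Ush1c, Myo7b, Pdzk1 and Espn lie above all WT points, while Ezr and Eps8 overlap between all groups.

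In Spns1 KO, 4 of the 10 genes rose against WT and none fell. The 4 were Cdhr5 and Cdhr2 of the adhesion complex, Pdzk1 of the membrane scaffold and Espn of the actin core, by 1.63- to 2.30-fold. A gene counts as risen or fallen here when its adjusted p was under 0.05 and its log2 fold change beyond 0.5, the limits of the study. By that rule 14.0% of all 16468 genes tested rose in Spns1 KO and 7.55% fell. The median log2 fold change of the 10 genes was 0.52, beside -0.05 over all genes tested, and 8 of the 10 values were positive, beside 46.8% of all genes tested. For 6 of the 10 genes every Spns1 KO library lay above every WT library, a pattern found for 13.1% of all genes tested. No brush border gene had all Spns1 KO libraries below WT, beside 9.38% of all genes. The 10 genes were chosen with earlier results of these data known, so these shares are descriptions and no test of the set.

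The same 10 genes were then compared between FeO and WT. Espn rose and Myo7b fell, and the other 8 passed neither limit. Of all genes tested, 22.4% rose and 19.7% fell in FeO, so 1 of 10 in each direction was near the background. The median log2 fold change of the 10 was 0.06, beside -0.01 over all genes. No brush border gene had FeO libraries all above WT (background 16.9%) or all below WT (background 16.4%). Both comparisons use the same 5 WT libraries and are not independent of each other.

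The difference between the models was tested directly by comparing Spns1 KO with FeO. Cdhr5 and Myo7b were higher in Spns1 KO and none of the 10 was lower, beside 6.76% of all genes higher and 8.10% lower. For 4 of the 10 genes all Spns1 KO libraries lay above all FeO libraries, beside 8.25% of all genes tested, and for none did they lie below, beside 9.10%. Those 4 were the 4 genes of the adhesion complex, which also lay above all WT libraries. The median log2 fold change of the 10 genes was 0.50 against FeO, beside 0.03 over all genes.

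**Figure D2:**
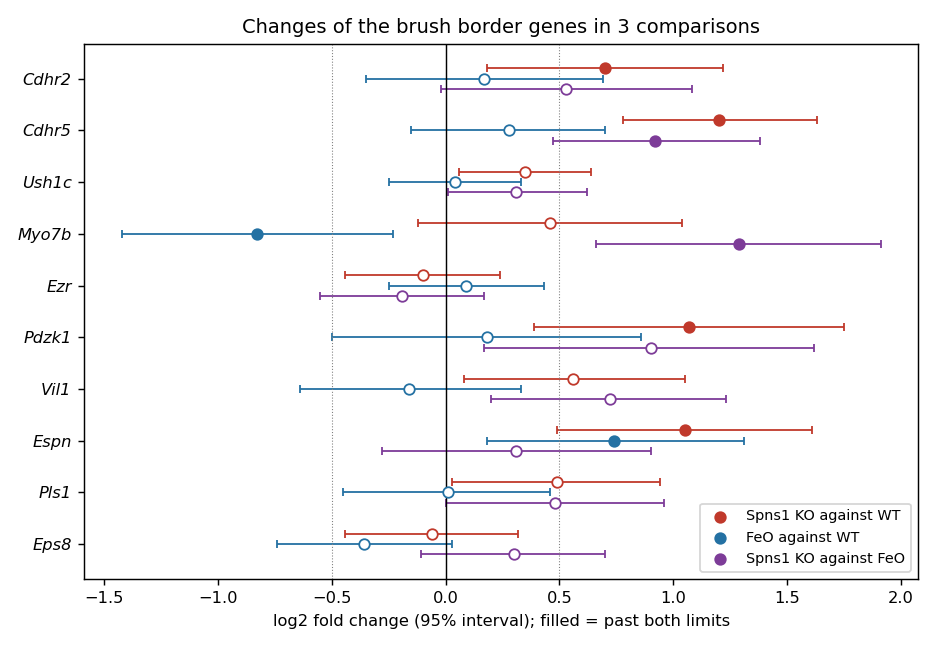
Log2 fold change of each brush border gene (horizontal axis) with its 95% interval in 3 comparisons of libraries (colours), where filled points passed both limits and dotted lines mark 0.5 in either direction. In Spns1 KO against WT, Cdhr5 (1.20), Pdzk1 (1.07), Espn (1.05) and Cdhr2 (0.70) are filled, and in FeO against WT only Espn (0.74) and Myo7b (-0.83).

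The promoters of the 4 genes that rose in Spns1 KO are shown, as the regions next to the genes that were called, beside that of Ezr, which was abundant and passed no limit. The windows run from 250 bases before to 50 after the start site of a RefSeq transcript (GRCm38.p6) and are written in the direction of transcription. Capitals mark matches on either strand of a pair of short words: the letters CAAAGTCCA for HNF4 factors, and a GC box with the letters GGGCGG.

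Cdhr5, chr7:141276737-141277036, minus strand: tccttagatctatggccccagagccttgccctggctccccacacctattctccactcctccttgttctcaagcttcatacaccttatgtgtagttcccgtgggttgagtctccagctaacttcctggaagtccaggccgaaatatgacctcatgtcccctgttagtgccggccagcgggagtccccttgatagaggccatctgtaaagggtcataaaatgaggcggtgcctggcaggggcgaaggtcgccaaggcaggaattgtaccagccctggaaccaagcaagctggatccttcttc
Cdhr2, chr13:54701213-54701512, plus strand: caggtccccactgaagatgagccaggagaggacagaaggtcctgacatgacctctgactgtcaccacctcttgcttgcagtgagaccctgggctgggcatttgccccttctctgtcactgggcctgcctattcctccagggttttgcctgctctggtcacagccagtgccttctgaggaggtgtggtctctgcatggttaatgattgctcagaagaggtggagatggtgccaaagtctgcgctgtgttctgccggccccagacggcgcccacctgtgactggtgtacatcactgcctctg
Pdzk1, chr3:96829815-96830114, plus strand: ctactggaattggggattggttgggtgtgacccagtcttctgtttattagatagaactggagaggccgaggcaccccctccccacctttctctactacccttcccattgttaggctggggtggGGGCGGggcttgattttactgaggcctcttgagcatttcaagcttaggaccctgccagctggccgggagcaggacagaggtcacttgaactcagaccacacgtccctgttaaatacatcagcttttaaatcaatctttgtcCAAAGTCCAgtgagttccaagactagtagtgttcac
Espn, chr4:152152340-152152639, minus strand: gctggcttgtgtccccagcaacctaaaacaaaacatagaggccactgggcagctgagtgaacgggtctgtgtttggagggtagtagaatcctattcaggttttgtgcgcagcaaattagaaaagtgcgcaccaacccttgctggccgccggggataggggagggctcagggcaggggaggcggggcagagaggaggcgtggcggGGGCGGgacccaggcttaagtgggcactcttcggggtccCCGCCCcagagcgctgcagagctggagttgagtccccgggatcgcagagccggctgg
Ezr, chr17:6782731-6783030, minus strand: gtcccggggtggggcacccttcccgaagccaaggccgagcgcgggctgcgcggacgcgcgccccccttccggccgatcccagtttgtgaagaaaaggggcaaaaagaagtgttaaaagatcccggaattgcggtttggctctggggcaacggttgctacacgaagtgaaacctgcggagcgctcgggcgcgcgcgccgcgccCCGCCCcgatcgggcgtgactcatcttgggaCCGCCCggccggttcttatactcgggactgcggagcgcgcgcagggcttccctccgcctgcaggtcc

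The windows of Cdhr5 and Cdhr2 held neither word. That of Pdzk1 held the HNF4 word at position 15 from the start site and a GC box at -127. Espn and Ezr held GC boxes only, at -46 and -7 and at -48 and -17. Of 32851 promoter windows of this length, 0.475% held the HNF4 word and 35.7% a GC box. Neither word was shared by all 4 genes that rose, and the words do not overlap each other. A match is a run of letters and no evidence of binding. Windows were found for 8 of the 10 genes, and Eps8 and Myo7b had none in the table.

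Of the 10 genes, a member of the adhesion complex had the largest change in Spns1 KO. Cdhr5, the protocadherin of the microvillus tip that pairs with Cdhr2, lies on chromosome 7 from 141269083 to 141276786 on the minus strand of GRCm38. It had 110, 105, 106 and 82.2 CPM in Spns1 KO 1 to 4. In order, the WT libraries had 54.4, 57.7, 40.6, 33.4 and 32.7 CPM and the FeO libraries 36.7, 55.4, 59.1 and 61.3 CPM. All Spns1 KO libraries lay above all others, while FeO and WT overlapped. Cdhr5 rose 2.30-fold in Spns1 KO (log2 fold change 1.20, SE 0.20, edgeR QL adjusted p = 0.00100). In FeO the log2 fold change was 0.28 (95% interval -0.15 to 0.70, edgeR QL adjusted p = 0.265). Spns1 KO exceeded FeO by a log2 fold change of 0.92 (SE 0.21, edgeR QL adjusted p = 0.0120). Both calls of Cdhr5 were made in each of the 13 fits that left out 1 library.

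Cdhr2, the other protocadherin (chromosome 13, 54701461 to 54736662, plus strand), had 27.4, 28.3, 27.6 and 26.0 CPM in Spns1 KO 1 to 4. WT 1 to 5 had 20.0, 21.3, 13.9, 11.8 and 16.9 CPM, and FeO 1 to 4 had 9.67, 25.9, 24.0 and 16.1 CPM. The Spns1 KO libraries lay close together and above all others, with a coefficient of variation of 3.57% beside 23.9% in WT and 39.5% in FeO. The rise in Spns1 KO was 1.63-fold (log2 fold change 0.70, SE 0.24) and only just passed the limit, with an edgeR QL adjusted p = 0.0488. It held in 6 of the 13 fits that left out a library, and it was lost without Spns1 KO 1, 2 or 3 or without WT 1, 3, 4 or 5 (edgeR QL adjusted p up to 0.107). It was also lost when counts were scaled to library totals alone (log2 fold change 0.58, edgeR QL adjusted p = 0.0791) or with upper-quartile factors (0.69, edgeR QL adjusted p = 0.0543). In FeO the log2 fold change was 0.17 (95% interval -0.35 to 0.69), and Spns1 KO exceeded FeO by 0.53 (-0.02 to 1.08, edgeR QL adjusted p = 0.166).

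Ush1c, the harmonin scaffold that links the protocadherin tails (chromosome 7, 46195350 to 46238503, minus strand), moved less. Its levels were 74.5, 81.6, 71.3 and 76.6 CPM in the Spns1 KO libraries. In order, the WT libraries had 69.3, 67.0, 59.4, 56.0 and 46.0 CPM and the FeO libraries 57.2, 65.3, 65.5 and 56.4 CPM. All 4 Spns1 KO libraries were above all WT and FeO libraries, but the log2 fold change against WT of 0.35 (95% interval 0.06 to 0.64) missed the limits (edgeR QL adjusted p = 0.0714). In FeO the value was 0.04 (95% interval -0.25 to 0.33). Against FeO it was 0.31 (95% interval 0.01 to 0.62, edgeR QL adjusted p = 0.141).

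Myo7b, the motor of the complex (chromosome 18, 31959234 to 32036961, minus strand), was the only one of the 10 genes that fell in FeO. It had 95.9, 82.2, 92.0 and 96.8 CPM in the Spns1 KO libraries. In order, the WT libraries had 76.2, 72.6, 64.1, 74.4 and 46.2 CPM and the FeO libraries 20.3, 66.7, 39.5 and 24.0 CPM. All Spns1 KO libraries were the highest and FeO 1, 3 and 4 the lowest, while FeO 2 lay within the WT range. In FeO the log2 fold change was -0.83 (SE 0.28, edgeR QL adjusted p = 0.0252), and in Spns1 KO it was 0.46 (95% interval -0.12 to 1.04, edgeR QL adjusted p = 0.231). The difference between Spns1 KO and FeO, 1.29 on the log2 scale (SE 0.29, edgeR QL adjusted p = 0.0115), was the largest among the 10 genes and held in all 13 fits that left out a library. The fall in FeO was lost without WT 1, WT 4, FeO 1 or FeO 4, with log2 fold changes from -0.78 to -0.60. Once counts were corrected for transcript length and GC content by a spline in each library, the value was -0.43 (edgeR QL adjusted p = 0.214). Myo7b has the longest transcript of the 10, at 6621 bases.

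The partners of the complex were read next to it. Calml4, a calmodulin-like light chain that binds Myo7b, had 134, 140, 79.6 and 136 CPM in Spns1 KO 1 to 4. WT libraries had 34.8, 33.6, 24.1, 21.9 and 28.5 CPM, and FeO libraries between 19.9 and 101. All Spns1 KO libraries exceeded all WT libraries, and FeO 4 exceeded Spns1 KO 3. Calml4 rose 4.29-fold in Spns1 KO (log2 fold change 2.10, SE 0.35, edgeR QL adjusted p = 9.50e-04). In FeO its value of 0.85 missed the limit (95% interval 0.12 to 1.57, edgeR QL adjusted p = 0.0538). Anks4b, the ankyrin-repeat scaffold that binds Ush1c, had a log2 fold change of 0.78 in Spns1 KO (95% interval 0.09 to 1.47, edgeR QL adjusted p = 0.0920) and of -0.05 in FeO. With the 4 members, all 6 genes of the complex had positive values in Spns1 KO, beside 46.8% of all genes tested, and 3 of them rose, beside 14.0%. The members and partners were joined for this tally only. They were chosen with earlier results of these data known, so the tally is a description and no test.

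Pdzk1, the PDZ scaffold of the apical membrane, lies on chromosome 3 from 96829284 to 96870926 on the plus strand. It had 721, 449, 678 and 365 CPM in Spns1 KO 1 to 4. In order, the WT libraries had 332, 288, 247, 231 and 218 CPM and the FeO libraries 130, 261, 543 and 256 CPM. Every Spns1 KO library lay above every WT library, and FeO 3 lay within the Spns1 KO range while FeO 1 was the lowest of all 13. Pdzk1 rose 2.10-fold in Spns1 KO (log2 fold change 1.07, SE 0.32, edgeR QL adjusted p = 0.0256). The call was lost without Spns1 KO 1 (0.92), Spns1 KO 3 (0.96) or WT 3 (1.06), with edgeR QL adjusted p up to 0.0894. In FeO the log2 fold change was 0.18 (95% interval -0.50 to 0.86), and without FeO 3 it was -0.29. Spns1 KO differed from FeO by 0.90 (95% interval 0.17 to 1.62, edgeR QL adjusted p = 0.0841), and that difference passed the limits without FeO 3 (1.36, edgeR QL adjusted p = 0.0139) and with DESeq2 (0.88, adjusted p = 0.0436). Exons of Gpr89 overlap Pdzk1 on the opposite strand, and 39.9% of Pdzk1's 31-base sequences also occur there, so reads of the pair can be confused. Gpr89 was much lower, at 21.3 CPM on average in WT, and its log2 fold change in Spns1 KO was -0.01.

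Ezr, the membrane linker of the ERM family and the most abundant of the 10 genes, lies on chromosome 17 from 6738041 to 6782784 on the minus strand. It ranged from 373 to 458 CPM in Spns1 KO, from 389 to 530 in WT and from 375 to 538 in FeO, so the groups overlapped. In Spns1 KO its log2 fold change was -0.10 (95% interval -0.44 to 0.24, edgeR QL adjusted p = 0.679) and 0.09 in FeO (-0.25 to 0.43, adjusted p = 0.668). Spns1 KO and FeO differed by -0.19 (95% interval -0.55 to 0.17). Its paralogs radixin (Rdx) and moesin (Msn) averaged 53.4 ± 15.4 and 25.5 ± 5.05 CPM per kilobase in WT (SD, n = 5), below Ezr at 144. Msn rose in FeO by a log2 fold change of 0.81 (edgeR QL adjusted p = 0.00604), with 0.30 in Spns1 KO (adjusted p = 0.309), and Rdx passed no limit in either model.

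The actin core gave a mixed picture. Espn, an actin bundler (chromosome 4, 152120331 to 152152371, minus strand), had 18.7, 15.3, 19.8 and 11.6 CPM in the Spns1 KO libraries. In order, the WT libraries had 9.47, 10.1, 6.43, 6.18 and 7.22 CPM and the FeO libraries 7.77, 16.9, 18.8 and 9.22 CPM. All Spns1 KO libraries were above all WT libraries, whereas FeO 2 and FeO 3 were above WT and FeO 1 and FeO 4 were within its range. Espn was the only one of the 10 genes to rise in both models. The log2 fold change was 1.05 in Spns1 KO (SE 0.27, edgeR QL adjusted p = 0.0113) and 0.74 in FeO (SE 0.27, adjusted p = 0.0334). The call in Spns1 KO was made in all 13 fits that left out a library. The call in FeO was lost without WT 3, WT 4, WT 5, FeO 2 or FeO 3 (lowest log2 fold change 0.52, without FeO 3) and with limma-voom (0.66, adjusted p = 0.0667). Spns1 KO and FeO differed by 0.31 (95% interval -0.28 to 0.90).

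The other core genes did not pass the limits against WT. Villin (Vil1, chromosome 1, 74409376 to 74435559, plus strand) ranged from 68.8 to 108 CPM in Spns1 KO, from 42.7 to 81.6 in WT and from 41.0 to 76.2 in FeO. In Spns1 KO its log2 fold change was 0.56 (95% interval 0.08 to 1.05, edgeR QL adjusted p = 0.0826) and -0.16 in FeO (-0.64 to 0.33). Without Spns1 KO 4, the lowest Spns1 KO library for Vil1, the value was 0.68 and passed (edgeR QL adjusted p = 0.0328), as it did when the fit held only Spns1 KO and WT (0.58, adjusted p = 0.0433). The difference of Vil1 between Spns1 KO and FeO was 0.72 (95% interval 0.20 to 1.23), just outside the limit with edgeR (adjusted p = 0.0553) and inside it with DESeq2 (0.70, adjusted p = 0.0354) and limma-voom (0.75, adjusted p = 0.0494).

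Plastin 1 (Pls1, chromosome 9, 95752642 to 95845311, minus strand) ranged from 35.0 to 66.9 CPM in Spns1 KO, from 28.3 to 50.2 in WT and from 26.6 to 49.3 in FeO, with log2 fold changes of 0.49 in Spns1 KO (95% interval 0.03 to 0.94, edgeR QL adjusted p = 0.111) and 0.01 in FeO (-0.45 to 0.46). Without Spns1 KO 4 the value of Pls1 in Spns1 KO was 0.64 and passed (edgeR QL adjusted p = 0.0218). Eps8, the tip protein (chromosome 6, 137477245 to 137654876, minus strand), ranged from 109 to 162 CPM in Spns1 KO, from 125 to 177 in WT and from 80.5 to 130 in FeO. In Spns1 KO its log2 fold change was -0.06 (95% interval -0.44 to 0.32) and -0.36 in FeO (-0.74 to 0.03, edgeR QL adjusted p = 0.117). The direction of Eps8 in Spns1 KO was not settled, since it turned to 0.17 once length and GC content were corrected for.

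Paralogs of the core genes were measured beside them. Pls3, the plastin of many cell types, had a mean of 115 ± 42.2 CPM in FeO (SD, n = 4) beside 62.2 ± 12.4 in WT (SD, n = 5), a log2 fold change of 0.88 (edgeR QL adjusted p = 0.00767), beside 0.01 in Spns1 KO. Lcp1, the plastin of leukocytes, rose in FeO by 0.80 (edgeR QL adjusted p = 0.0229) and had 0.51 in Spns1 KO (adjusted p = 0.170). The villin-like gene Vill fell in FeO by 0.75 on the log2 scale (edgeR QL adjusted p = 0.0299), with 0.26 in Spns1 KO. Among the Eps8 relatives, Eps8l1 rose in FeO by 1.31 (edgeR QL adjusted p = 8.76e-04) and Eps8l2 by 0.62 (adjusted p = 0.0126), while in Spns1 KO they had 0.54 and -0.30, neither past the limits. Eps8l2 was the more abundant of these at 73.2 ± 9.79 CPM per kilobase in WT (SD, n = 5), above Eps8 itself at 31.0, but 36.3% of its 31-base sequences also occur in B230206H07Rik, which overlaps it on the opposite strand. Espnl at 6.24 CPM and Eps8l3 at 2.17 CPM in WT were low and passed no limit.

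**Figure D3:**
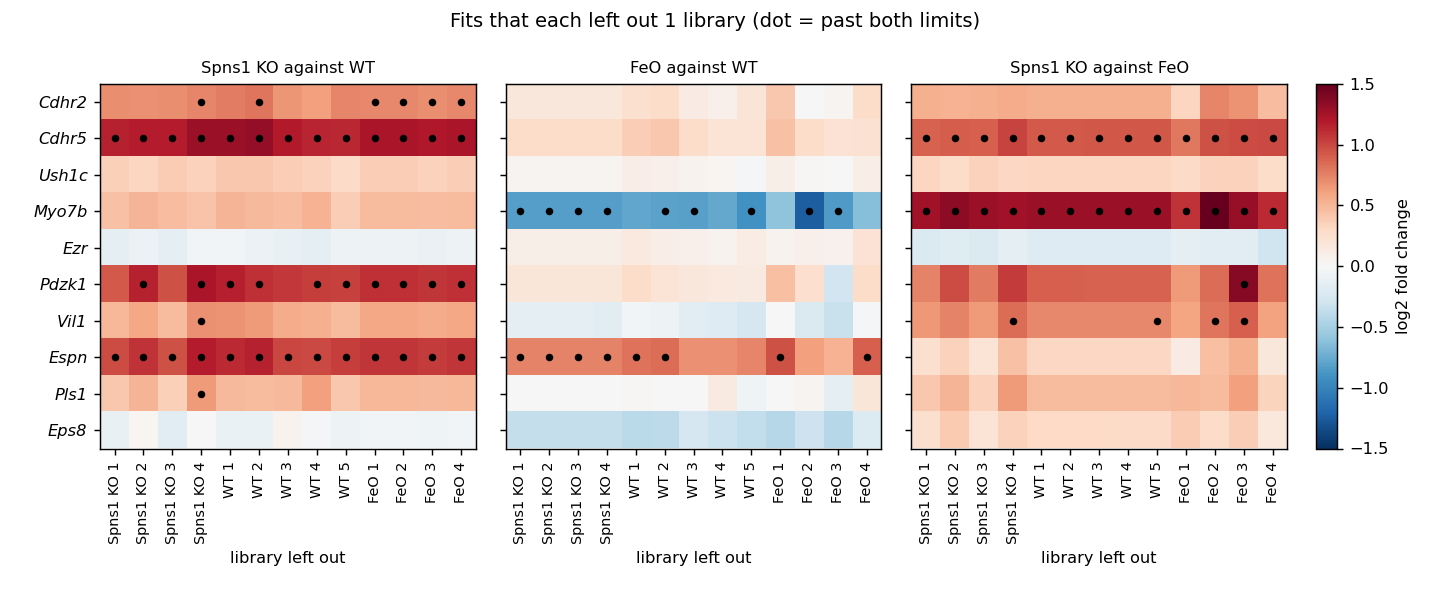
Log2 fold change (colour, red higher and blue lower) of each brush border gene in 3 comparisons when each of the 13 libraries was left out of the fit in turn (columns), with a dot where both limits were passed. Cdhr5 and Espn are dotted in all columns of Spns1 KO against WT, Cdhr5 and Myo7b in all columns of Spns1 KO against FeO, and the calls in FeO against WT come and go.

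Spns1 KO 4 was the lowest Spns1 KO library for 7 of the 10 genes, FeO 1 the lowest FeO library for 6 and WT 5 the lowest WT library for 6. FeO 3 was the highest FeO library for 5 of the 10. Summed over the 10 genes, the level ran from 1256 to 1819 CPM in Spns1 KO, from 948 to 1511 in FeO and from 1025 to 1338 in WT, and Spns1 KO 4 and FeO 4 were the lowest in their groups. These libraries are captured RNA of many cells, in which fewer cells of a type and less RNA per cell cannot be told apart.

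Other proximal tubule genes moved as well. The counts of markers below stand beside 14.0% of all genes tested rising and 7.55% falling in Spns1 KO. In FeO those shares were 22.4% and 19.7%, and 6.76% of all genes were higher in Spns1 KO than in FeO. The summed level of the 10 proximal tubule markers, among them the transporter genes Slc34a1 and Slc5a2, ran from 6405 to 7241 CPM in Spns1 KO, from 1831 (FeO 1) to 4232 in FeO and from 2881 to 4054 in WT. In Spns1 KO 8 of these 10 rose and none fell, with a median log2 fold change of 0.96, above the median of 0.52 of the brush border genes. In FeO 2 rose and 1 fell, with values from -1.46 to 1.20 and a median of 0.10, and between Spns1 KO and FeO 6 were higher in Spns1 KO (median 1.13). Lrp2, the megalin gene that also drives the Cre, had means of 1044 CPM in Spns1 KO, 519 in FeO and 621 in WT. Of the 5 markers of the S3 segment, the last part of the proximal tubule, 3 rose in Spns1 KO and 4 in FeO (medians 0.70 and 1.11). Their summed level of 149 to 238 CPM in Spns1 KO and 170 to 314 in FeO lay wholly above the 86.8 to 111 of WT. Most of that sum was Slc5a1, Slc5a10 and Slc22a7, since Slc7a13 had at most 2.45 CPM and Cyp7b1 at most 5.10 CPM in any library. The S3 markers did not all move alike, with values from -0.28 to 1.99 for Spns1 KO and from -0.95 to 1.95 for FeO on the log2 scale. The 6 leukocyte markers summed to at most 90.7 CPM in WT, to at least 180 in every Spns1 KO library and to at least 108 in every FeO library, and 1 of them rose in Spns1 KO and 4 in FeO. Cd74 alone made up 87.9 to 129 CPM of the sum in Spns1 KO. The 5 fibroblast markers summed to 118 to 163 CPM in Spns1 KO, above the WT maximum of 97.9, and to 52.7 to 126 in FeO, and 3 of them rose in Spns1 KO and none in FeO. The 8 injury markers summed to 1100 to 1454 CPM in Spns1 KO, to 484 to 1370 in FeO and to 507 to 675 in WT, but most of the sum was Spp1, at 949 to 1260 CPM in Spns1 KO. By count, 1 of the 8 rose in Spns1 KO (median log2 fold change 0.15, lowest -3.05) and 4 rose in FeO (median 1.15). Of the other lists, 2 of 6 podocyte, 1 of 4 thick ascending limb, 2 of 7 distal and collecting duct and 1 of 6 endothelial markers rose in Spns1 KO. In FeO 4, 2, 4 and 1 of these rose, with medians of 0.85, 0.76, 1.13 and 0.03. A distal marker fell in Spns1 KO and an endothelial one in FeO. The rising share of endothelial markers, 16.7% in both models, and that of proximal tubule markers in FeO, 20.0%, were near the background. So were the rising shares of leukocyte markers, 16.7%, and of injury markers, 12.5%, in Spns1 KO. The part of these shifts in the changes of the brush border genes was not tested.

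**Figure D4:**
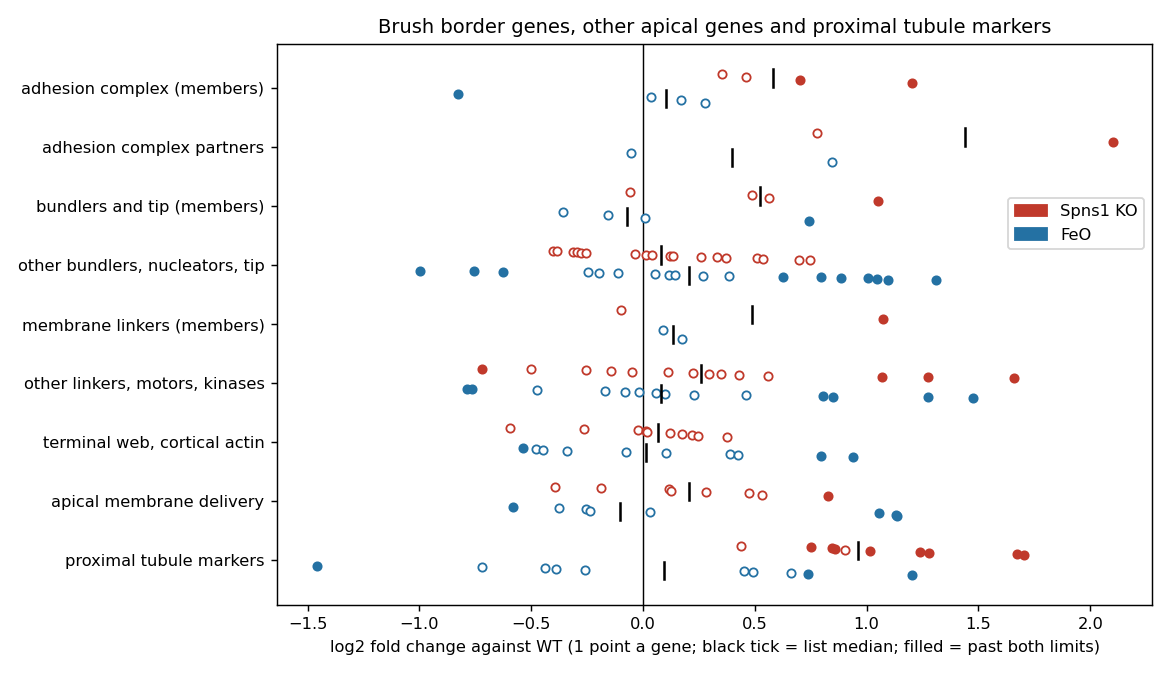
Log2 fold change against WT (horizontal axis) of each brush border gene, of the other apical genes by list and of the proximal tubule markers, in Spns1 KO (red) and FeO (blue), with list medians as black ticks and filled points past both limits. The proximal tubule markers are shifted to the right in Spns1 KO (median 0.96) and spread on both sides of 0 in FeO, from -1.46 to 1.20 (median 0.10).

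The other genes of microvilli, apical membrane, terminal web and kidney epithelial transcription formed 6 lists of 58 genes, of which 56 were tested. In Spns1 KO 5 rose and 1 fell, or 8.93% rising beside 14.0% of all genes and 1.79% falling beside 7.55%, with a median log2 fold change of 0.15. In FeO 16 rose and 7 fell, or 28.6% rising beside 22.4% of all genes and 12.5% falling beside 19.7%, with a median of 0.08.

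Membrane linkers, motors and ezrin kinases held 3 of the 5 risers in Spns1 KO, or 21.4% of the 14 tested, beside 14.0% of all genes. In FeO 28.6% of the 14 rose and 14.3% fell, beside 22.4% and 19.7%. Tmigd1, an adhesion molecule of the proximal tubule brush border, reached 42.6 ± 4.57 CPM in Spns1 KO (SD, n = 4) beside 13.5 ± 5.21 in WT (SD, n = 5), a rise of 1.66 on the log2 scale (edgeR QL adjusted p = 0.00272). In FeO it rose by 0.85 (edgeR QL adjusted p = 0.0426). FeO 1 to 4 had 16.3, 14.0, 21.3 and 45.6 CPM, beside 7.95 to 20.0 in WT, so FeO 1 and FeO 2 lay within the WT range. Pdzk1ip1, a small membrane protein that binds Pdzk1, rose by 1.28 in Spns1 KO and 1.47 in FeO (edgeR QL adjusted p = 0.00205 and 5.53e-04), and in both models all libraries lay above WT. The third, Slc9a3r2, a PDZ scaffold of the NHERF family named here after its value was seen, rose by 1.07 in Spns1 KO (edgeR QL adjusted p = 0.00511) and had 0.46 in FeO, with no call between the models (0.61, edgeR QL adjusted p = 0.102). Its relative Slc9a3r1, which binds ezrin, rose by 1.27 in FeO (edgeR QL adjusted p = 0.00107) and had 0.43 in Spns1 KO (adjusted p = 0.210). Myo1e, a class I myosin, fell in Spns1 KO by 0.72 on the log2 scale (edgeR QL adjusted p = 0.00595), and the ezrin kinase genes Slk and Stk10 fell in FeO by 0.79 and 0.77 (edgeR QL adjusted p = 0.00276 and 0.0129). Myo1a, the brush border myosin of the intestine, had a mean of 0.419 CPM in Spns1 KO and was below the filter.

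Of 18 other bundlers, nucleators and tip proteins, none passed the limits in Spns1 KO, beside 14.0% of all genes rising and 7.55% falling. In FeO 7 rose and 3 fell, beside 22.4% and 19.7%. A direct comparison of Spns1 KO with FeO called 2 of the 18 higher and 3 lower, beside 6.76% and 8.10%. Capzb, the beta subunit of the barbed-end capping protein, rose in FeO by 1.05 (edgeR QL adjusted p = 7.60e-04), and the membrane-bending genes Baiap2 and Baiap2l2 fell by 1.00 and 0.63 (edgeR QL adjusted p = 0.0123 and 0.0141). Of 10 terminal web and cortical actin genes none passed the limits in Spns1 KO, beside 14.0% of all genes rising and 7.55% falling. For this list 2 of the 10 rose and 1 fell in FeO, beside 22.4% and 19.7%, so neither share was above that of all genes. In FeO the cytoplasmic actin genes Actb and Actg1 rose by 0.94 and 0.80 and non-muscle myosin Myh9 fell by 0.53 (edgeR QL adjusted p = 0.00380, 0.00819 and 0.0280). Counts of the actin genes are uncertain, since 35.3% and 57.1% of their 31-base sequences occur in other genes. Of 8 tested genes of apical membrane delivery, the SNARE gene Vamp8 rose in both models, by 0.82 in Spns1 KO and 1.13 in FeO (edgeR QL adjusted p = 0.00781 and 6.67e-04). In FeO Rab8a rose by 1.14 (edgeR QL adjusted p = 7.64e-04) and Vps33b fell by 0.58 (adjusted p = 0.0379). Of the 8 genes, 12.5% rose in Spns1 KO, near the 14.0% of all genes. In FeO 37.5% rose and 12.5% fell, beside 22.4% and 19.7%.

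The transcription factors Hnf4a and Hnf4g did not pass the limits in any of the 3 comparisons. Mean levels of Hnf4a were 1052 ± 180 CPM over the Spns1 KO libraries (SD, n = 4), 738 ± 393 over FeO (SD, n = 4) and 1070 ± 142 over WT (SD, n = 5). The log2 fold change was -0.02 in Spns1 KO (95% interval -0.65 to 0.60) and -0.54 in FeO (-1.17 to 0.10, edgeR QL adjusted p = 0.152). Of the promoters shown, that of Pdzk1 holds the HNF4 word, the only match in 11 windows of the brush border genes. A link of these factors to the level of Pdzk1 was not tested.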

How the data were processed

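Thiol-tagged RNA was biotinylated, purified with streptavidin, enriched for mRNA and sequenced from both ends. The authors deposited an estimated count per gene symbol and library, in whole numbers and without normalization. The submitters' processing notes name bcl2fastq 2.19, kallisto 0.44.0, DESeq2 and GRCm38, whereas the study's methods describe alignment with STAR and counting with HTSeq. The deposited table carries the name of kallisto, and the use of strand is not given in the sources used here. Counts were scaled with TMM factors, filtered with filterByExpr and fitted with edgeR 4.0.16 (R 4.3.3) in a quasi-likelihood model of all 13 libraries, with Benjamini-Hochberg adjustment over 16468 genes. A gene was called at an adjusted p under 0.05 and a log2 fold change beyond 0.5. Intervals are 95% intervals of the fitted values. CPM per kilobase divides CPM by transcript length. Scripts were tested on simulated data. DESeq2 1.42.0, limma 3.58.1 (voom), other scalings and filters, fits of 2 groups, a replicate block, a length and GC trend and fits without each library were alternatives. The 10 genes and the lists were chosen with earlier results of these data known. All 10 genes were named, with the paralogs of 5 of them. Of each other list, up to 2 called genes per direction and comparison were named, those with the smallest adjusted p. Positions are from GRCm38, and promoters are from RefSeq. Some genes of the lists are not reported here. Vamp7 was not in the table and Myo1a was below the filter.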

Additional observations from a re-analysis of the deposited data

Results flagged for a closer look

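Dixon's criterion flagged no library in any of the 30 sets of values tested for the 10 brush border genes (3 groups per gene). With only 4 or 5 libraries in a group, it flags a value only when that value lies very far from the rest. The result therefore does not show that no library stood apart, and some calls changed when 1 library was left out, as given below. The following genes of the report differed between the models by a direct test of Spns1 KO against FeO, in which edgeR gave an adjusted p under 0.05 and the log2 fold change was beyond 0.5.

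Of the brush border genes, Myo7b and Cdhr5 were higher in Spns1 KO than in FeO, by 1.29 and 0.92 on the log2 scale. Of the other apical genes, Calml4 (1.25), Vill (1.01), Stk10 (0.99), Slk (0.74), Vps33b (0.71), Baiap2l2 (0.66), Myh9 (0.65) and Myh14 (0.59) were also higher in Spns1 KO. Lower in Spns1 KO than in FeO were Actb (-0.93), Eps8l2 (-0.92), Pls3 (-0.87), Slc9a3r1 (-0.85), Capzb (-0.72) and Rab8a (-0.66). The difference of Cdhr5 and that of Myo7b were called in each of 13 fits that left out 1 library.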

How the results depend on the processing

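Over all alternatives other than leaving out a library, 266 of the log2 fold changes of the 10 brush border genes kept direction and side of the limits, 12 lost and 10 gained a call and 12 changed sign, and over fits without 1 library the numbers were 356, 19, 7 and 8. The rise of Cdhr5 in Spns1 KO and the difference of Myo7b between models kept their calls under every alternative run. Scaling to library totals moved the median log2 fold change of all genes in Spns1 KO from -0.05 to -0.18 and that of the 10 genes from 0.52 to 0.40. The cause was not tested for any change below.

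In Spns1 KO, the number of brush border genes that rose, 4, became 2 with the replicate block and 1 with the block and the length and GC trend removed. The other apical genes that rose, 5, became 10 with the 2 groups alone, and those that fell, 1, became 2 with library totals and 0 with block and trend. In FeO, the 1 riser became 0 with limma-voom, with the block and with block and trend, the 1 faller 0 with the trend removed and with block and trend, and the 7 other apical genes that fell became 4 with the trend removed and 4 with block and trend. Against FeO, the 2 genes higher in Spns1 KO became 4 with DESeq2, and the 4 without overlap became 2 with library totals.

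Without single libraries, the counts ranged from 2 to 6 (brush border genes rising in Spns1 KO), 5 to 10 and 1 to 2 (other apical genes rising and falling there), 0 to 1 (risers and fallers in FeO), 4 to 7 (other fallers in FeO), 2 to 4 (higher than FeO), and 0 to 1 for genes wholly below WT in FeO or wholly below FeO in Spns1 KO. The lowest values in Spns1 KO came without Spns1 KO 1, Spns1 KO 3 or WT 3.

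Small values changed sign. Eps8 in Spns1 KO became 0.001 with all genes kept, 0.17 with the trend removed and 0.14 with block and trend, and ranged from -0.16 to 0.046 without single libraries. In FeO, Ush1c became -0.024 with the trend removed, -0.018 with library totals, -0.04 with the block and -0.12 with block and trend (-0.023 to 0.10 without single libraries). Pls1 became -0.063 with library totals, -0.017 with upper-quartile factors, -0.004 with limma-voom and -0.13 with the block (-0.13 to 0.18). Pdzk1 became -0.084 with block and trend (-0.29 to 0.45) and Cdhr2 ranged from -0.003 to 0.41.

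Replicate numbers showed no clear pairing of the libraries. Of 12 same-numbered pairs 4 correlated above 0.1 in their deviations, with r from -0.30 to 0.26. The median r of different numbers was 0.02, and 3 of 13 libraries correlated best with their own number. With so few libraries this check cannot exclude a pairing. The study took its WT mice from littermates and gave tamoxifen to mouse pairs in parallel, but the labels do not link libraries to litters. The replicate block, which treats equal numbers as pairs, left the calls of Cdhr5 and Espn in Spns1 KO.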
